A study of Rattus norvegicus with 14 samples.

Results

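Copper and zinc enter and leave cells through dedicated membrane proteins, and transcripts of 5 such proteins were followed in the rat pineal gland, retina and mixed tissue. The 5 genes were Atp7b and Atp7a (copper-exporting P-type ATPases), Slc31a1 (the copper importer CTR1), Slc39a4 (the zinc importer ZIP4) and Slc30a1 (the zinc exporter ZnT1). They were picked by symbol, with results of these data known, from the 16472 genes of the deposited expression table. Each of the 5 had 1 transcript there, and no other listed transcript overlapped its span. The values that led to the choice are the levels themselves, so levels and differences of these 5 genes are descriptions, with no test.

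The libraries came from Sprague-Dawley rats aged 6 to 8 weeks, on a daily schedule of 14 h light and 10 h dark. Zeitgeber times (ZT) count hours from lights on. Pineal glands and retinas were each collected at ZT1, ZT7 and ZT13 (light) and at ZT15, ZT19 and ZT23 (dark), from pools of 10 animals. The mixed tissue was a pool of 15 tissues, retina among them, from 3 animals, collected at ZT7 and ZT19. No treatment other than the lighting schedule is labelled. Each tissue and time had 1 library, so a single value has no error of its own. The mixed pool is a comparison over many organs and not a single tissue, and the pooling of animals hides the spread between them. A lower value in such bulk tissue can mean fewer cells of a type or less RNA per cell, which cannot be told apart.

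Values are FPKM: the fragments assigned to a transcript, divided by its length in kb and by the library's total. This allows levels of different genes to be compared where the listed transcript is the one present. Summed FPKM per library lay between 152281 and 212634, and 8852 to 11399 genes reached 1 FPKM. Fragment counts were not used, so the depth is known only roughly: 1 fragment on a transcript of 1 kb was worth an estimated 0.0216 to 0.0527 FPKM. Tph1 and Gnat1 separated the pineal and retina labels, though the listed pinealocyte marker Gngt1 went the other way. Tph1, the first enzyme on the way to serotonin and melatonin, lay between 2968 and 3848 FPKM in pineal libraries, against 0.359 to 0.522 FPKM in retina libraries. Gnat1, the rod transducin subunit, was 0.944 to 1.60 FPKM in pineal libraries, against 2294 to 3753 FPKM in retina libraries. Of the other listed pinealocyte markers, Aanat (5.13 to 857 FPKM) and Asmt (237 to 444 FPKM) were higher in pineal gland. In retina they reached at most 4.17 and 8.61 FPKM. Gngt1 was higher in retina at each time, with 715 to 1620 FPKM, against 430 to 1040 FPKM in pineal libraries.

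Copper is taken up by the importer CTR1 and handed by small carrier proteins to the ATP7 pumps, which load copper enzymes in the secretory pathway and expel an excess. ATP7B and ATP7A are related proteins whose loss causes Wilson disease and Menkes disease in people. In rats a shorter product of the Atp7b gene, PINA, is known from the pineal gland and retina at night. The deposited table lists PINA among the aliases of Atp7b and gives 1 value for the gene, so PINA and the full-length transcript cannot be told apart. FPKM uses the length of the listed transcript, so levels of Atp7b set against other genes are uncertain where PINA is present. Zinc is brought into the cytosol by ZIP proteins, encoded by Slc39 genes, and removed from it by ZnT proteins, encoded by Slc30 genes. Slc30a1 is known to be switched on by zinc through the factor MTF1, which binds metal response elements in promoters.

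Windows around the annotated starts of Atp7b and Slc30a1 are shown because these were the 2 of the 5 genes whose pineal transcripts were highest at ZT19, ZT23 and ZT1. The windows hold 250 bases before and 50 bases after the annotated start, from RefSeq on the GRCr8 assembly. Matched by gene ID, a window was found for 4 of the 5 genes. None was found for Slc39a4. Capitals mark the core letters of a metal response element on either strand, TGCACNC or TGCGCNC, read 5′ to 3′ on the gene's strand:

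Atp7b, chr16:76654475-76654774, plus strand: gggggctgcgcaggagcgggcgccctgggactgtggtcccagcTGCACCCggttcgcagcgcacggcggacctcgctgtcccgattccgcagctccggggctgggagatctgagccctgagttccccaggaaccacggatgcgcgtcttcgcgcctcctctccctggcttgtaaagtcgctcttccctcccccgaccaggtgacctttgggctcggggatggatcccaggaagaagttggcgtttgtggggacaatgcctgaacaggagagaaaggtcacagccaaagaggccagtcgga

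Slc30a1, chr13:106021769-106022068, plus strand: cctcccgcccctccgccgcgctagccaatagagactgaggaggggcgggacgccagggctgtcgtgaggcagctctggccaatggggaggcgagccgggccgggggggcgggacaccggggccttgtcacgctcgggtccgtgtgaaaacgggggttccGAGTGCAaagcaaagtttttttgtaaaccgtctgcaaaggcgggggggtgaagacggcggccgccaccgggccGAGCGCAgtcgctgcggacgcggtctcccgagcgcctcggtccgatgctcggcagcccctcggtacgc

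In the Atp7b window TGCACNC stood on the plus strand at bases 44 to 50. In the Slc30a1 window TGCACNC stood on the minus strand at bases 160 to 166 and TGCGCNC on the minus strand at bases 233 to 239. The Atp7a and Slc31a1 windows held neither. Whether transcription begins at these annotated starts was not checked, so a window need not hold the promoter. A word present or missing there does not tell whether the promoter has a metal response element. Of 27457 windows of the same length, 12.2% held TGCACNC, 15% held TGCGCNC and 25% held at least 1 of them, searched on both strands. These are short and frequent words, and a match describes letters and not binding. The full-length start of Atp7b need not be the start of PINA. The windows were also searched for TGACG, a cAMP response element half-site, and TAATCC, a photoreceptor homeobox site. TGACG stood in the Slc31a1 window alone, and TAATCC in none of the windows found. Of all windows, 22% held TGACG and 7.11% held TAATCC.

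The levels of the 5 genes took a different order in each tissue. In the pineal gland Slc39a4 was the highest, with 96.8 ± 11.1 FPKM (SD, n = 6 libraries). Atp7b followed at 59.6 ± 68.9 FPKM and Slc30a1 at 24.96 ± 11.01 FPKM. The wide range of Atp7b overlapped those of both its neighbours. Slc31a1 and Atp7a were lower, with 5.70 ± 1.53 and 4.33 ± 0.613 FPKM, also with overlapping libraries. In the retina the order was Atp7b (6.35 ± 4.18 FPKM), Slc30a1 (6.27 ± 0.576), Slc31a1 (4.76 ± 0.544), Atp7a (2.06 ± 0.355) and Slc39a4 (0.407 ± 0.138), n = 6 libraries each. In this order Atp7b overlapped Slc30a1, and Slc30a1 overlapped Slc31a1, whereas Slc31a1 and Atp7a did not overlap, nor did Atp7a and Slc39a4. In mixed tissue Slc31a1 led with 16.2 ± 2.32 FPKM, followed by Slc30a1 (7.17 ± 0.184), Slc39a4 (6.502 ± 1.76), Atp7a (2.89 ± 0.326) and Atp7b (2.50 ± 0.499), n = 2 libraries each. There Slc30a1 overlapped Slc39a4, and Atp7a overlapped Atp7b. These orders rest on means over the day: at ZT19 and ZT23 pineal Atp7b (139 and 144 FPKM) was above pineal Slc39a4 (75.6 and 97.8 FPKM).

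**Figure D1:**
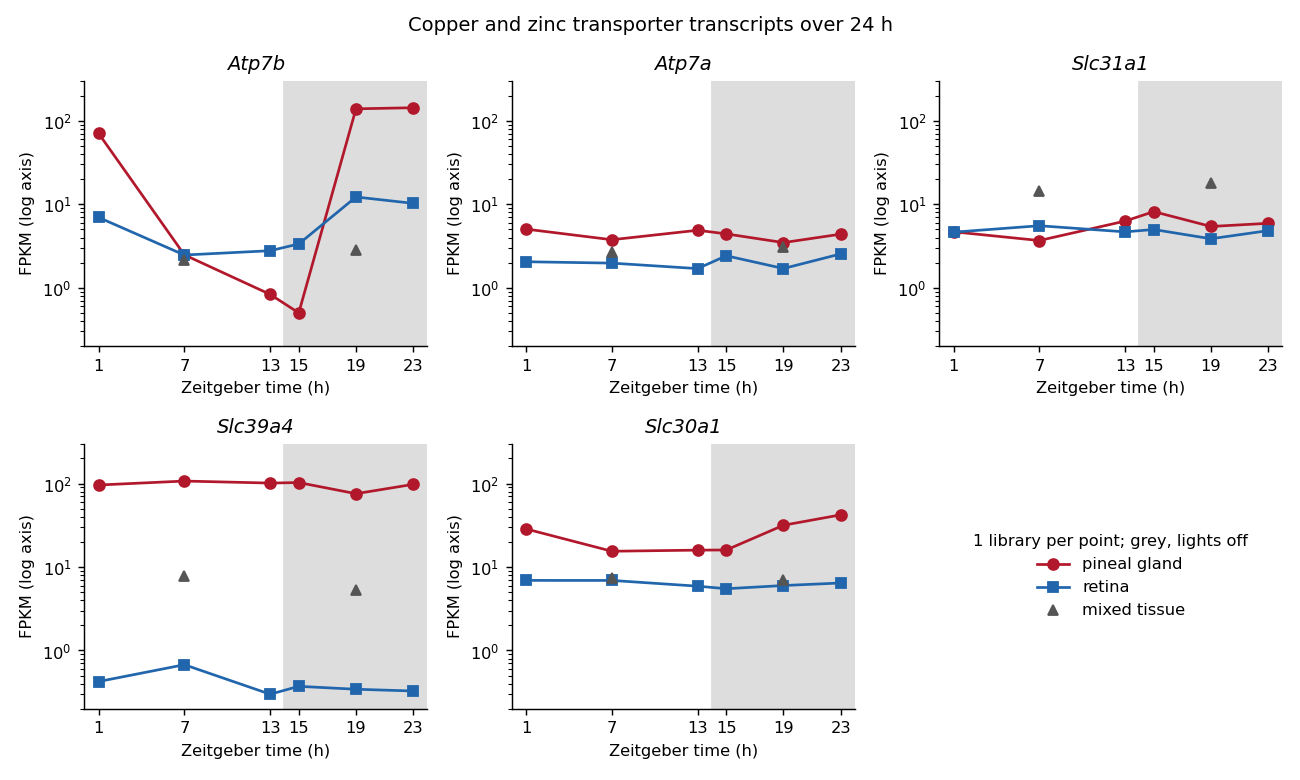
FPKM (log axis) of the 5 genes against zeitgeber time in h, 1 library per point, with circles for pineal gland, squares for retina, triangles for mixed tissue and grey for darkness. Pineal Atp7b spans 0.5001 to 144 FPKM, while pineal Slc39a4 stays between 75.6 and 107 FPKM and retinal Slc39a4 stays at or below 0.675 FPKM.

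Atp7b, the copper pump of the secretory pathway (gene ID 24218; rn4 chromosome 16, 74607988 to 74680080), had the widest range. Pineal libraries held 70.9 FPKM at ZT1, 2.48 at ZT7, 0.833 at ZT13, 0.5001 at ZT15, 139 at ZT19 and 144 at ZT23. Retina libraries held 6.97, 2.47, 2.78, 3.35, 12.2 and 10.3 FPKM at the same times. Both tissues were high at ZT19, ZT23 and ZT1 and low at ZT7, ZT13 and ZT15, a split read from these same values. Mixed tissue held 2.15 FPKM at ZT7 and 2.85 FPKM at ZT19, close together at both times.

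Pineal Atp7b at ZT19 was 279-fold its level at ZT15, while retinal Atp7b at ZT19 was 3.65-fold its level at ZT15. After lights on, the pineal level at ZT1 was 0.494 of that at ZT23, and the level at ZT7 was 0.0350 of that at ZT1. The ZT15 library was taken in darkness and still had the lowest pineal value of the day. In the pineal gland 38.9% of all genes lay below Atp7b at ZT15, and 99.2% did at ZT19.

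The order of the tissues for Atp7b reversed with the time of day. Pineal over retina, the ratio was 10.2 at ZT1, 1.00 at ZT7, 0.300 at ZT13, 0.149 at ZT15, 11.4 at ZT19 and 14.0 at ZT23. The pineal gland thus had less Atp7b than the retina on both sides of lights off and more from ZT19 to ZT1. At ZT7 all 3 tissues stood close together, with 2.48 FPKM in pineal gland and 2.47 FPKM in retina, against 2.15 FPKM in mixed tissue. At ZT19 the same values were 139 FPKM in pineal gland and 12.2 FPKM in retina, against 2.85 FPKM in mixed tissue. Averaged over the day, the fitted log2 difference between pineal gland and retina was 1.28 (SE 1.12), an error nearly as large as the value.

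Aanat, the enzyme that sets melatonin synthesis at night, was high in the same pineal libraries as Atp7b: 396 FPKM at ZT1, 650 at ZT19 and 857 at ZT23, and at most 7.05 FPKM at the other times. In the retina Aanat was also highest at ZT19 (4.17 FPKM), ZT23 (2.47) and ZT1 (1.23), and at most 0.249 FPKM otherwise. Lens transcripts moved with the retinal pattern of Atp7b. The summed FPKM of Crygc, Crygd and Mip, 3 lens genes, was 984 at ZT19, 170 at ZT23 and 410 at ZT1, against 54.9, 75.6 and 80.0 at ZT7, ZT13 and ZT15, without overlap. Its part in the retinal Atp7b values was not tested.

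Atp7a, the copper pump of most tissues outside the liver (gene ID 24941; rn4 chromosome X, 94192540 to 94249773), was steady. Pineal libraries held 5.04, 3.76, 4.89, 4.42, 3.48 and 4.39 FPKM from ZT1 to ZT23, against 2.05, 1.97, 1.70, 2.42, 1.70 and 2.54 FPKM in retina libraries. Every pineal library was above every retina library, and each tissue varied by at most 1.50-fold over the day. Mixed tissue lay between them, with 2.66 and 3.12 FPKM. The fitted log2 difference was 0.80 (SE 0.0987) for pineal gland minus retina and 0.45 (SE 0.140) for pineal gland minus mixed tissue. The second ran from 0.25 (ZT7 and ZT19 libraries only) to 1.40 (quantile normalization).

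Because Atp7a was steady, the ratio of Atp7b to Atp7a followed Atp7b. In the pineal gland the ratio was 14.1 at ZT1, 0.659 at ZT7, 0.170 at ZT13, 0.113 at ZT15, 40.1 at ZT19 and 32.7 at ZT23. By FPKM the pineal gland therefore held more Atp7a than Atp7b at ZT7, ZT13 and ZT15, and more Atp7b at the other times. The transcript length for Atp7b is uncertain where PINA is present, and so is the size of these ratios. In the retina the ratio stayed above 1, from 1.25 at ZT7 to 7.20 at ZT19. In mixed tissue it was 0.809 at ZT7 and 0.915 at ZT19, slightly in favour of Atp7a.

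Slc31a1, the high-affinity copper importer of the plasma membrane (gene ID 171135; rn4 chromosome 5, 79359420 to 79385988), was the member that mixed tissue expressed most. It held 4.68, 3.68, 6.30, 8.17, 5.43 and 5.92 FPKM in pineal libraries and 4.63, 5.53, 4.68, 4.99, 3.86 and 4.83 FPKM in retina libraries, from ZT1 to ZT23. Mixed tissue held 14.5 FPKM at ZT7 and 17.8 FPKM at ZT19, above all 12 libraries of the other tissues. The pineal and retina libraries overlapped, with a fitted log2 difference of 0.19 (SE 0.135). Against mixed tissue the fitted log2 difference was -1.38 (SE 0.192) for the pineal gland and -1.58 (SE 0.192) for the retina.

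The highest pineal value of Slc31a1 came from the ZT15 library, which also held the most of Kl, Folr1 and Kcnj13, genes of the choroid plexus list. There Kl, Folr1 and Kcnj13 reached 14.1, 10.9 and 13.8 FPKM, against at most 5.12, 2.80 and 4.99 FPKM in the other pineal libraries. The transthyretin gene Ttr, from the pigment epithelium list, reached 3566 FPKM there, against at most 1152. Otx2, the list's remaining gene, which pineal and retina cells also express, was 156 FPKM at ZT15 and highest at ZT19 (212 FPKM). The summed level of the list (Kl, Folr1, Kcnj13 and Otx2) was 118 to 221 FPKM in pineal libraries, against 116 to 128 FPKM in retina libraries and 32.9 to 35.1 FPKM in mixed tissue. Its highest pineal value was at ZT19 (221 FPKM) and not at ZT15 (195 FPKM). The part of choroid plexus tissue in the Slc31a1 value was not tested. Without the pineal ZT15 library the fitted log2 difference of Slc31a1 between pineal gland and retina was 0.0956.

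Slc39a4, the zinc importer known for zinc uptake in the small intestine and mutated in the human disease acrodermatitis enteropathica (gene ID 300051; rn4 chromosome 7, 114661925 to 114666098), separated the tissues most. Pineal libraries held 96.1, 107, 101, 103, 75.6 and 97.8 FPKM from ZT1 to ZT23, against 0.424, 0.675, 0.299, 0.372, 0.343 and 0.327 FPKM in retina libraries. Mixed tissue held 7.75 FPKM at ZT7 and 5.26 FPKM at ZT19, between the others and overlapping neither. The mean was 238-fold higher in pineal gland than in retina, and 159-fold to 339-fold at single times. It was 14.9-fold higher in pineal gland than in mixed tissue. The fitted log2 differences, on the scale of FPKM + 1, were 6.12 (SE 0.103) against retina and 3.72 (SE 0.146) against mixed tissue.

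The pineal level of Slc39a4 put it above 98.0% to 98.7% of all genes in every pineal library, while 34.6% to 39.0% of genes lay below it in retina libraries. Small intestine transcripts were near 0 in the pineal gland. The summed FPKM of Fabp2, Vil1, Apoa4 and Lct was 0.156 to 0.353 in pineal libraries and 0.00768 to 0.118 in retina libraries, against 227 and 89.3 in mixed tissue at ZT7 and ZT19. Fabp2 and Apoa4 were listed at 0 in all pineal and retina libraries. In mixed tissue, both Slc39a4 and the intestinal sum were higher at ZT7 than at ZT19. The sums of most other marker lists were too, such as liver (2152 and 1838 FPKM) and astrocyte (304 and 249 FPKM). Blood and lens went the other way. The part of intestine in the mixed Slc39a4 values was not tested.

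Within its family Slc39a4 dominated the pineal gland. Of the summed FPKM of 13 Slc39 genes in the table, it made up 48.1%, 50.1%, 48.7%, 48.7%, 47.8% and 51.6% from ZT1 to ZT23, and it ranked first in each pineal library. In the retina it made up 0.362% to 0.750% with ranks from 10 to 13, and Slc39a7, a zinc channel of the endoplasmic reticulum, ranked first. In mixed tissue the share was 6.06% at ZT7 and 5.04% at ZT19. The 12 other genes together summed to 82.7 to 108 FPKM in pineal gland and 74.4 to 89.3 FPKM in retina, so the larger pineal total lay mainly in Slc39a4.

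**Figure D2:**
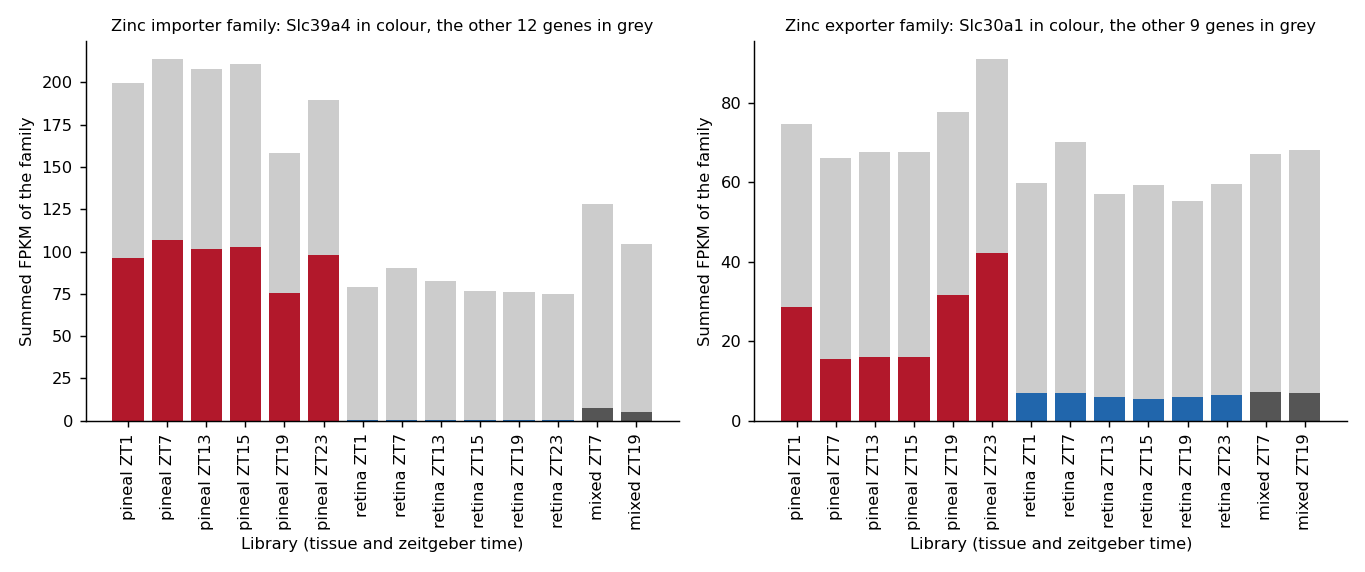
Summed FPKM of the 13 zinc importer genes (left) and of the 10 zinc exporter genes (right) in each library, with Slc39a4 or Slc30a1 in colour (red, pineal gland; blue, retina; dark grey, mixed tissue) and the other family members in light grey. Slc39a4 fills 47.8% to 51.6% of each pineal bar on the left, and Slc30a1 fills 23.4% to 46.4% of each pineal bar on the right.

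Slc30a1, the zinc exporter of the plasma membrane (gene ID 58976; rn4 chromosome 13, 107980864 to 107986519), was both higher in the pineal gland and uneven over its day. Pineal libraries held 28.6, 15.4, 15.9, 16.0, 31.7 and 42.2 FPKM from ZT1 to ZT23, against 6.91, 6.90, 5.89, 5.49, 6.00 and 6.43 FPKM in retina libraries. Mixed tissue held 7.30 FPKM at ZT7 and 7.04 FPKM at ZT19. Every pineal library was above every other library, and the pineal libraries at ZT19, ZT23 and ZT1 were above the other pineal libraries, the same times as for Atp7b. The retina and mixed values showed no such split, and the retina varied by 1.26-fold over the day. How many of all genes had this pineal split was not counted. Of all genes tested, 20.7% passed for a pineal 24-h cosine, 6.61% with a peak in the dark.

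The size and shape of the Slc30a1 pattern differed from those of Atp7b. Pineal Slc30a1 at ZT19 was 1.98-fold its level at ZT15, against 279-fold for Atp7b. At ZT1 it stood at 0.678 of its ZT23 level, where Atp7b stood at 0.494. Slc30a1 was flat from ZT7 to ZT15, with 15.4 to 16.0 FPKM, whereas Atp7b was lower at each of these times than at the one before. Pineal over retina, the Slc30a1 ratio was 2.24 at ZT7 and 6.55 at ZT23, and it never fell below 1.

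Slc30a1 changed rank within the zinc exporter family over the pineal day. It made up 38.3%, 23.4%, 23.6%, 23.7%, 40.7% and 46.4% of the summed FPKM of 10 Slc30 genes from ZT1 to ZT23. It ranked first at ZT1, ZT19 and ZT23, and second behind Slc30a9 at ZT7, ZT13 and ZT15. In the retina its rank was 4 at each time, with 9.26% to 11.6%, and Slc30a9 was the highest.

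Late dark (ZT19 and ZT23) was set against light (ZT1, ZT7 and ZT13), with both tissues in 1 model. In the pineal gland Atp7b averaged 141 ± 2.99 FPKM in late dark (n = 2) and 24.7 ± 40.0 FPKM in light (n = 3), and the large light SD came from the ZT1 library. The late dark mean was 5.72-fold higher. Set against ZT7 and ZT13 alone, which averaged 1.66 ± 1.17 FPKM, it was 85.4-fold higher. The fitted log2 difference between late dark and light was 4.21 (SE 1.14). It compares means of log2(FPKM + 1), in which the ZT1 library weighs less, and is not the log of the 5.72-fold. Pineal Slc30a1 averaged 36.9 ± 7.43 FPKM in late dark and 19.99 ± 7.45 FPKM in light, with a fitted log2 difference of 0.89 (SE 0.228). Retinal Atp7b averaged 11.3 ± 1.39 FPKM in late dark and 4.07 ± 2.51 FPKM in light, with a fitted log2 difference of 1.38 (SE 1.14). This SE equals the pineal one because the model gave both tissues 1 shared spread, so it does not measure the retinal spread.

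The other members differed less over the day. Their pineal fitted log2 differences between late dark and light were -0.17 (SE 0.162) for Atp7a, 0.20 (SE 0.177) for Slc31a1 and -0.24 (SE 0.142) for Slc39a4. In the retina the 4 members other than Atp7b lay between -0.16 and 0.09. For all genes tested the median difference was -0.12 (pineal gland) and -0.11 (retina), so that small negative values stand close to the bulk of genes. The difference between the tissues' late dark differences was 2.83 (SE 1.61) for Atp7b and 0.96 (SE 0.322) for Slc30a1.

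Counts of members past the threshold of 0.05 (limma, Benjamini-Hochberg adjusted over all genes tested) are given beside the share of all genes for orientation, and nothing is read from them. All 5 passed the filter on low values, Slc39a4 through the pineal and mixed libraries alone. For late dark against light, 2 of the 5 passed in the pineal gland (Atp7b and Slc30a1, both higher), where 7.28% of 10416 genes passed and 3.04% were higher. None of the 5 passed in the retina, where 0.0096% passed, which is 1 gene, and 1238 genes had an unadjusted p under 0.05. The retina test used the spread shared with the pineal gland. None passed for the difference between the tissues, where 0.71% did. A 24-h cosine passed for 2 of the 5 in the pineal gland (Atp7b and Slc30a1, fitted peaks at ZT22.6 and ZT22.2), where 20.7% passed and 6.61% had a peak in the dark. It passed for none of the 5 in the retina, where 1.02% passed.

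Both late dark libraries were above all 3 light libraries for Atp7b and Slc30a1 in the pineal gland, as for 9.74% of genes, and for Atp7b in the retina, as for 4.74% of genes. Between tissues, 3 of the 5 passed as higher in pineal gland than in retina (Atp7a, Slc39a4 and Slc30a1), where 68.9% of 11656 genes passed and 36.9% were higher. In these 3 every pineal library was above every retina library, as for 25.6% of genes. Against mixed tissue 4 of the 5 passed for the pineal gland, where 64.8% of genes passed: Atp7a, Slc39a4 and Slc30a1 were higher, as 19.8% of genes were, and Slc31a1 was lower, as 45% were. The libraries of these 4 did not overlap, as for 19.9% of genes above and 45.3% below. For the retina 3 of the 5 passed as lower than mixed tissue (Atp7a, Slc31a1 and Slc39a4), where 65% of genes passed and 46.6% were lower. Without overlap 4 of the 5 were lower in retina, these 3 and Slc30a1, as for 48.4% of genes. The comparisons with mixed tissue share its 2 libraries.

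The genes whose levels ran most like a member's were taken by Pearson correlation of log2(FPKM + 1) over all 14 libraries, which include both tissue and time differences. For Atp7b they were St8sia2 (r = 0.937), Hnrnph2 (0.912), Pde8b (0.910), Pde10a (0.909) and nod3l (0.902), of 11656 genes compared. St8sia2, a polysialic acid synthase, held 11.5, 0.841, 0.585, 0.213, 8.31 and 18.2 FPKM in pineal libraries from ZT1 to ZT23, against 1.21 to 2.50 FPKM in retina. Pde8b and Pde10a encode phosphodiesterases that break down cyclic nucleotides, and pineal Pde10a held 53.0 FPKM at ZT19, against 4.28 FPKM at ZT15. For Slc39a4, which separated tissues rather than times, they were Chga (0.997), Pgm1 (0.997), Rarres1 (0.996), Taldo1 (0.996) and Ndufb10 (0.995). Chga, which encodes the secretory granule protein chromogranin A, lay between 466 and 758 FPKM in pineal gland, against 20.1 to 28.4 FPKM in retina. For Slc31a1 they were Uqcrc2 (0.976), Trpv4 (0.974), Paqr5 (0.968), Ocln (0.966) and Spag6 (0.961), all highest in mixed tissue.

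Other genes that handle copper were looked at as a list, which was drawn up with earlier results known. Of 23 listed genes in the table, 21 were tested, and 3 had a pineal 24-h rhythm, 2 of them peaking in the dark (median fitted range of the list 0.35, of all genes 0.39, log2). Of all genes tested 20.7% were rhythmic in the pineal gland and 6.61% were rhythmic with a peak in the dark, while 7.28% passed for late dark against light. Mt1a, a metallothionein that binds zinc and copper, held 2.82, 0.556, 0.768, 0.325, 4.66 and 6.22 FPKM in pineal libraries from ZT1 to ZT23. Its fitted range was 2.50 on the log2 scale with a peak at ZT22.2 (limma, adjusted p = 0.00377), and it was higher in late dark than in light by 1.55 (SE 0.318, adjusted p = 0.0172). The late dark call was lost in 9 of 20 alternatives. Among them were no filter, a pseudocount of 0.1 FPKM and the pineal gland fitted alone. The call was also lost without the pineal ZT7, ZT13, ZT19 or ZT23 library, and with ZT15 grouped with late dark (limma, adjusted p = 0.561). In the time series Mt1a reached 1 FPKM in the pineal ZT1, ZT19 and ZT23 libraries alone. It passed the filter only through libraries where it was high, so nothing is read from its calls. Metallothionein transcripts are short and resemble one another closely, so the value is uncertain. Retinal Mt1a stayed at or below 0.576 FPKM.

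Commd1, whose protein is known to bind ATP7B, held 75.8, 50.5, 26.9, 22.1, 85.5 and 79.4 FPKM in pineal libraries, against 12.2 to 17.2 FPKM in retina libraries. It was thus high at the times when Atp7b was high, and also at ZT7, when Atp7b was not. Its pineal rhythm had a fitted range of 1.78 and a peak within the first hour after lights on (adjusted p = 0.00734), and did not pass when the pineal gland was fitted alone (adjusted p = 0.0581). Slc25a3, the mitochondrial phosphate and copper carrier, had a smaller rhythm (0.68, adjusted p = 0.0217), which was lost without the pineal ZT13 or ZT23 library and with the pineal gland fitted alone. None of the tested genes of this list passed in the retina, for late dark or for rhythm. Of 15 tested copper enzymes none passed either test in either tissue (limma; median pineal range 0.34).

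Of the zinc transporters other than the members, importers and exporters were tested over the day. Of 10 tested importers 3 had a pineal rhythm, 1 of them with a peak in the dark (median fitted range 0.45), where 20.7% of all genes had one and 6.61% had such a peak. Slc39a8, a plasma membrane importer of zinc and manganese, was lowest when Atp7b was highest: pineal libraries held 14.4, 20.7, 20.5, 22.99, 9.20 and 6.29 FPKM from ZT1 to ZT23. It was lower in late dark than in light, by -1.16 on the log2 scale (SE 0.195, adjusted p = 0.00658), a call lost with the pineal gland fitted alone and with ZT15 grouped with late dark. Slc39a5 was higher in late dark by 1.04 (SE 0.233, adjusted p = 0.0245), with 5.26 and 3.40 FPKM at ZT19 and ZT23, against 1.38 to 1.75 FPKM in the light libraries. That call was lost in 6 of 20 alternatives, among them without the pineal ZT7, ZT13 or ZT19 library. Slc39a7, with a range of 0.52 (adjusted p = 0.0468), lost its call in 13 of 17 alternatives.

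Of 8 tested zinc exporters 2 had a pineal rhythm, both with peaks in the light and so away from that of Slc30a1 (median fitted range 0.20), where 20.7% of all genes had one. Slc30a6, a zinc transporter of the Golgi, held 6.51, 8.07, 5.59, 5.04, 3.51 and 4.72 FPKM in pineal libraries from ZT1 to ZT23 (range 0.98, peak at ZT6.73, adjusted p = 0.00628). Its partner transporter Slc30a5 had a range of 0.54 and a peak at ZT11.9 (adjusted p = 0.0228). The Slc30a5 call was lost without the pineal ZT1 or ZT13 library and under both other scalings, and both calls were lost when the pineal gland was fitted alone. No exporter passed for late dark against light.

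Other P-type ATPases, relatives of Atp7b and Atp7a that pump other ions or lipids, included 6 rhythmic genes of 12 tested in the pineal gland, 5 with peaks in the dark (median fitted range 0.64), where 20.7% of all genes were rhythmic and 6.61% had such a peak. The largest range belonged to Atp2b1, a plasma membrane calcium pump, with 15.3, 9.82, 11.8, 10.2, 25.05 and 21.2 FPKM from ZT1 to ZT23 (1.29, adjusted p = 0.0104). It was also the gene of this list that passed for late dark (0.87, SE 0.163, adjusted p = 0.0108). That call was lost in 3 of 20 alternatives: without the pineal ZT19 library, with the pineal gland fitted alone and with ZT15 grouped with late dark, where the difference was 0.51. Atp11a, Atp2a2, Atp2b2, Atp2c1 and Atp13a2 had fitted ranges of 0.73, 0.72, 0.87, 0.59 and 0.49. No listed ATPase had a range near that of Atp7b, at 7.74. All 6 rhythm calls were lost when the pineal gland was fitted alone. Those of Atp13a2, Atp2b2 and Atp2c1 were lost in 9, 12 and 5 of 17 alternatives in all, and that of Atp11a also without the pineal ZT7 library.

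**Figure D3:**
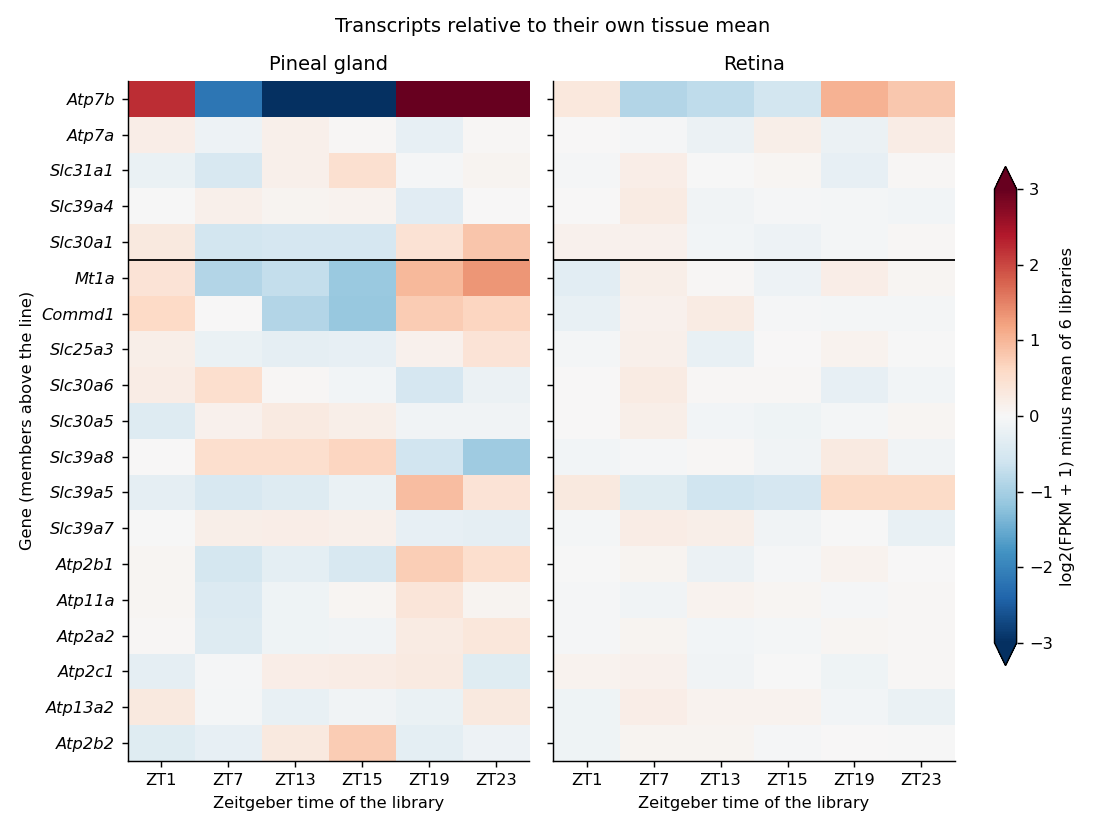
log2(FPKM + 1) minus the mean of the tissue's 6 libraries, for the 5 members (above the line) and for the listed genes that passed a time test in the pineal gland, in pineal gland (left) and retina (right) at each zeitgeber time. Atp7b exceeds the colour scale in the pineal gland; Mt1a and Commd1 share its red ZT1, ZT19 and ZT23 columns, and Slc39a8 is blue at ZT19 and ZT23.

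Between tissues the lists moved in both directions. For copper handling, 16 of 21 tested genes differed between pineal gland and retina, 9 higher and 7 lower in pineal gland (median of the list 0.21, of all genes 0.03). Of all genes 68.9% differed and 36.9% were higher in pineal gland. Slc31a2, a CTR1 relative of intracellular membranes, averaged 2.49 ± 0.375 FPKM in pineal gland and 27.4 ± 4.83 FPKM in retina (log2 difference -3.01, SE 0.115, adjusted p = 3.6e-12), unlike Slc31a1, whose libraries overlapped. Xiap, an inhibitor of apoptosis that also acts on copper handling, was lower by -2.32, and Steap3, a metal reductase, by -1.13. Steap3 passed the filter on low values through retina and mixed libraries alone. Commd1 (1.73), Mt3 (1.66), a brain metallothionein, and Cox17 (1.45), a copper chaperone of mitochondria, were higher. Mtf1, the metal-responsive factor, averaged 11.99 ± 1.24 FPKM in pineal gland and 6.23 ± 0.384 FPKM in retina (0.84, SE 0.0739, limma, adjusted p = 7.5e-08). It was picked for this comparison after its values were seen.

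Copper enzymes differed in 14 of 17 tested genes, 7 in each direction (median 0.00), where 68.9% of all genes differed. Sod3, the extracellular superoxide dismutase, averaged 84.1 ± 9.48 FPKM in pineal gland and 7.06 ± 2.37 FPKM in retina (log2 difference 3.46, SE 0.184, adjusted p = 1.9e-10). F5, coagulation factor V, which binds copper, was higher by 2.33, and Cp, the copper protein ceruloplasmin, by 1.18. Pam, an enzyme that amidates peptides, was lower by -1.23. Hephl1, a ceruloplasmin relative, and Tyr, the pigment enzyme tyrosinase, were also lower: Tyr was listed at 0 in 5 of the 6 pineal libraries and lay between 0.435 and 3.58 FPKM in retina libraries. Hephl1 and Tyr passed the filter on low values through retina libraries alone, so they could only be counted as lower in pineal gland.

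For zinc, 7 of 11 importers differed between pineal gland and retina, 4 higher and 3 lower, and 7 of 8 exporters, 2 higher and 5 lower (medians 0.06 and -0.33), where 68.9% of all genes differed and 36.9% were higher. Slc39a8 averaged 15.7 ± 6.85 FPKM in pineal gland and 0.466 ± 0.159 FPKM in retina (log2 difference 3.39, SE 0.246, adjusted p = 8e-09), and Slc39a11 was higher by 2.01. The difference of Slc39a4, 6.12, lay outside the range of the other 11 tested importers, -0.86 for Slc39a5 to 3.39 for Slc39a8. Among exporters Slc30a7 (0.84) and Slc30a6 (0.62) were higher, and Tmem163 (-2.25), Slc30a3 (-1.57), the zinc transporter of synaptic vesicles, and Slc30a10 (-1.05) were lower. Tmem163, Slc30a3 and Slc30a10 passed the filter on low values through retina and mixed libraries alone. The difference of Slc30a1, 1.73, was above those of the 8 tested exporters. Other P-type ATPases differed in 9 of 13 (median 0.23; 68.9% of all genes), 6 higher, among them Atp2b4 (1.28), and 3 lower, among them Atp2b2 (-1.81) and Atp2b1 (-1.63).

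Against mixed tissue most called list genes were lower in the pineal gland, as were most called genes: of 11656 genes 64.8% passed, 19.8% higher and 45% lower, with a median log2 difference of -0.25. Under quantile normalization this direction turned, with 59.2% of the called genes higher and a median of 0.20. The medians were -0.47 for copper handling, -0.38 for copper enzymes, -0.17 for exporters, -0.24 for importers and -0.92 for the ATPases. Of copper handling genes 15 passed, 4 higher and 11 lower, with Commd1 (1.305), Mtf1 (1.09) and Cox17 (0.78) higher and Mt3 (-2.11), Steap3 (-1.46) and Slc31a2 (-1.20) lower. The Commd1 call was lost without either mixed library and that of Cox17 without the mixed ZT19 library. Of copper enzymes 10 passed, 2 higher, F5 (3.17) and Sod3 (1.35), and 8 lower, among them Aoc3 (-2.18), a vascular amine oxidase, and Abp1, a diamine oxidase listed at 0 in all pineal and retina libraries. Of zinc importers 6 passed, with Slc39a8 (2.07) and Slc39a11 (1.17) higher and 4 lower. Of zinc exporters 6 passed, with Slc30a6 (0.56) and Slc30a7 (0.40) higher and 4 lower, Slc30a3 (-2.93) the lowest. The Slc30a6 call was lost without the mixed ZT7 library (0.34), with zeitgeber time as a replicate block and with the ZT7 and ZT19 libraries alone, and its value was 1.41 under quantile normalization. The Slc30a7 call was lost without the mixed ZT19 library (0.23) and with the ZT7 and ZT19 libraries alone, and its value was 1.12 under quantile normalization. Of the ATPases 10 passed, 3 higher, among them Atp13a2 (0.57) and Atp11a (0.48), and 7 lower, Atp2a3 (-2.96) the lowest. Among the genes counted as lower, Abp1, Dbh, Slc39a12 and Atp2a3 reached 1 FPKM in mixed libraries alone. Steap3, Slc30a3, Tmem163 and Slc30a10 reached it in retina and mixed libraries alone. All of these entered the test without a pineal library at 1 FPKM, so nothing is read from their direction. The calls of Atp13a2 and Atp11a were lost without the mixed ZT19 library and with the ZT7 and ZT19 libraries alone.

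**Figure D4:**
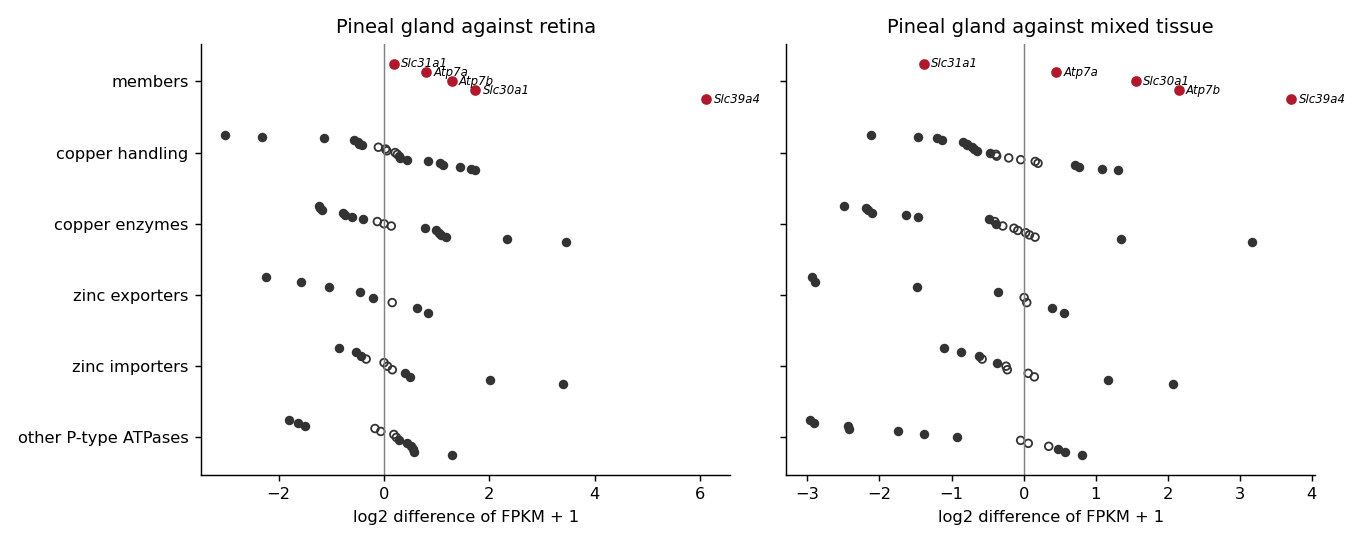
Fitted log2 differences of FPKM + 1 for the 5 members (red) and for each tested gene of the 5 lists (filled, adjusted p below 0.05; open, not past it), pineal gland against retina (left) and against mixed tissue (right). Slc39a4 lies farthest to the right in both panels, at 6.12 and 3.72, and Slc31a1 lies near 0 on the left and at -1.38 on the right.

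Retina set against mixed tissue completed the comparison. Atp7b averaged 6.35 ± 4.18 FPKM in retina and 2.50 ± 0.499 FPKM in mixed tissue, and at ZT7, with 2.47 FPKM in retina and 2.15 FPKM in mixed tissue, the values were close. Slc39a4 averaged 0.407 ± 0.138 FPKM in retina and 6.502 ± 1.76 FPKM in mixed tissue, 0.0625 of the mixed level. Slc30a1 averaged 6.27 ± 0.576 FPKM in retina and 7.17 ± 0.184 FPKM in mixed tissue, with a fitted log2 difference of -0.17 (SE 0.301) that took the opposite sign under quantile normalization and median ratio scaling. Atp7a, at -0.35 (SE 0.140), took the opposite sign under quantile normalization. Of the lists, 15 of 21 copper handling genes passed (6 higher and 9 lower in retina), 14 of 17 copper enzymes (3 and 11), 4 of 8 exporters (0 and 4), 8 of 11 importers (1 and 7) and 8 of 13 ATPases (1 and 7). Their medians were -0.33, -0.89, -0.27, -0.53 and -0.92, against -0.30 for all genes, of which 65% passed and 46.6% were lower.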

How the data were processed

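RNA of 14 libraries (6 pineal gland, 6 retina, 2 mixed tissue) was measured by sequencing. Per the labels' protocols, libraries were made from 10 µg of RNA after selection of polyadenylated transcripts, with random priming and 16 PCR cycles. Lanes held 6 barcoded libraries, read as 101-base paired ends. Cufflinks 1.2.0, TopHat 1.3.1 and build rn4 are named, without roles, in the submitters' processing notes. The authors deposited FPKM for 16932 RefSeq transcripts; whether reads keep strand is not given in the sources used here. FPKM is relative to each library's own fragments, so abundant transcripts lower all others.

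FPKM was summed per gene ID. Start positions count from 0 in the table (99.7% of 1191 olfactory receptor spans were then whole codons), so 1 was added. Differences were fitted with limma 3.58.1 (R 4.3.3) on log2(FPKM + 1). Genes had to reach 1 FPKM in 2 or more libraries (10416 in the time series, 11656 between tissues), with Benjamini-Hochberg adjustment over all of them. A gene near 0 in 1 tissue could pass this filter through the others, and could then hardly be called higher there. A pseudocount of 1 FPKM understates the changes of low genes. The late dark model gave ZT15 its own mean, the rhythm model was a 24-h cosine and sine per tissue (fitted range, peak to trough), and libraries of a tissue served as replicates between tissues. With 1 library per tissue and time, errors hold both the spread of pools and the departure from the model, with 6 and 11 residual degrees of freedom. Each model used 1 spread per gene for all its tissues, so an SE is not the spread of a single tissue. The fits were tested on simulated data.

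The 5 members and the gene lists were chosen with earlier results of these data known. Named list genes were those past a pineal or retinal time test (at most 6 per list) and, between the pineal gland and each other tissue, at most 3 per direction and list by size. Likeness was the 5 highest correlations. Mtf1 in the retina comparison was chosen after its values were seen. Of the listed genes 8 had no value here, and Abp1 is the table's symbol for Aoc1. Some genes that the rule names are not reported here.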

Additional observations from a re-analysis of the deposited data

Results flagged for a closer look

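Within groups of 6 libraries, 38 combinations of gene and tissue (the members and the listed genes that passed a time test) were looked at for a single library far from the others, and 3 were found. For replicate values the cutoff used flags about 1 in 20 groups by chance. These groups held different times of day, so that rate need not hold here. Pineal Slc39a4 was lowest at ZT19, with 75.595 FPKM, against 96.1 to 107 FPKM in the other pineal libraries, and its gap was 0.649 of the whole range. The ZT19 library also had the lowest summed FPKM of the pineal libraries (163087), the smallest estimated depth of all libraries (0.41 of the deepest) and the lowest pineal Tph1 (2968 FPKM), and their part in the value was not tested. Retinal Slc39a4 was highest at ZT7, with 0.67485 FPKM, against 0.299 to 0.424 FPKM in the other retina libraries (gap 0.668 of the range). Retinal Slc39a8 was highest at ZT19, with 0.7729 FPKM, against 0.359 to 0.490 FPKM in the other retina libraries (gap 0.684 of the range). The retina ZT19 library also had the largest sum of lens transcripts, 984 FPKM, and its part in the Slc39a8 value was not tested. Both retinal values are below 1 FPKM, where counting error is large.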

How the results depend on the processing

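The members' pineal late dark differences kept their sign in all 20 alternatives for each of the 5 genes. Atp7b ran from 2.02 (ZT15 grouped with late dark) to 5.82 (without pineal ZT1), and Slc30a1 from 0.51 (ZT15 grouped) to 1.17 (without pineal ZT1). Pineal minus retina kept its sign for all 5 in 19 alternatives: Slc39a4 ran from 5.85 (quantile normalization) to 7.61 (pseudocount of 0.1 FPKM), and Atp7b from 0.64 (without pineal ZT23) to 1.96 (without pineal ZT15). Signs turned in retina minus mixed tissue for Atp7a (0.50 under quantile normalization) and Slc30a1 (0.26 under quantile normalization, 0.11 under median ratio scaling). They also turned for the small retinal late dark differences of Slc30a1 (-0.07, against 0.08 under either scaling and 0.01 without retina ZT1 and ZT19 together) and Atp7a (0.09, against -0.10 without retina ZT23). The difference between the tissues' late dark differences of Slc39a4 (-0.11) turned to 0.09 with a pseudocount of 0.1 FPKM and 0.08 without pineal ZT19. The cause was not tested.

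Counts over all genes moved more. Genes past the pineal late dark test numbered 758, but 477 without a filter, 121 with the tissue fitted alone, 1578 with ZT1 given its own mean, 0 with ZT15 grouped with late dark, and 334 without retina ZT1 and ZT19 together, an alternative chosen after seeing the data. The same settings without the lone fit gave 5, 104, 0 and 6 in the retina (1 in the report, 0 with a pseudocount of 0.1 FPKM), and 12, 340, 0 and 8 for the difference between tissues (74 in the report). Rhythmic genes fell to 535 of 2160 with the pineal gland fitted alone. In the retina, where 106 were rhythmic, there were 58 with a pseudocount of 0.1 FPKM, 64 without a filter, 173 under quantile normalization and 781 with the retina fitted alone. Leaving out 1 library in turn gave 178 (without pineal ZT19) to 1602 (without pineal ZT1) for pineal late dark, 0 (without retina ZT19) to 74 (without retina ZT1) for retina late dark and 7 (without retina ZT19) to 379 (without pineal ZT1) for their difference. The first of these counts also moved over 1.5 times without pineal ZT7, pineal ZT13, retina ZT19 or retina ZT23. Leaving out gave 882 (without pineal ZT23) to 2624 (without pineal ZT7) for the pineal rhythm and 12 (without retina ZT1) to 412 (without pineal ZT19) for the retina rhythm. Between tissues it gave 7774 to 8159 for pineal against retina, 6386 to 7680 for pineal against mixed tissue and 6347 to 7805 for retina against mixed tissue.

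Scaling moved the split of calls. The share that was higher in pineal late dark was 41.8%, against 60.3% under quantile normalization and 66.3% under median ratio scaling. For the difference between tissues it was 79.7%, against 65.1% and 66.3%. The share with a dark peak was 31.9% in the pineal gland, against 47.7% under median ratio scaling, and 31.1% in the retina, against 57.2% and 70.6%. The share higher than in mixed tissue was 30.5% for the pineal gland, against 59.2% and 43.7%, and 28.3% for the retina, against 58.8% and 46.4%. The median difference of all genes against mixed tissue was -0.25 for the pineal gland, against 0.20 and -0.05, and -0.30 for the retina, against 0.18 and -0.03. With zeitgeber time as a replicate block, 8226 genes differed between pineal gland and retina, 7380 between pineal gland and mixed tissue and 7410 between retina and mixed tissue, within 1.5 times the counts without the block (8030, 7549 and 7582).

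Of the named pineal against mixed tissue calls, those of Commd1 (without either mixed library), Cox17, Slc30a7, Atp13a2 and Atp11a (without mixed ZT19), Slc30a6 (without mixed ZT7 and with the replicate block), and Slc39a12 and Slc39a14 (quantile normalization) were lost. Those of Slc30a6, Slc30a7, Atp13a2 and Atp11a were also lost with the ZT7 and ZT19 libraries alone. The pineal against retina calls of the named genes held in all 19 alternatives, except for Mtf1, whose call was not run through them. Exact depth was not available from FPKM, which limits values near or below 1 FPKM, retinal Slc39a4 among them.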
